A study of Sus scrofa with 16 samples.

Results

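DKK3, which belongs to the dickkopf proteins, and the secreted frizzled-related proteins SFRP1, SFRP2, SFRP4 and FRZB were examined in the subcutaneous fat of pigs. A probe was taken where its gene name on the array was 1 of these 5 symbols, it was no control, and at least 8 of the 16 arrays had its spot well above background. Of the 5 genes, 2 had such a probe, and together they held 4 of the 43603 probes on the array, 3 for DKK3 and 1 for SFRP4. No probe carried the name SFRP1, SFRP2 or FRZB, and SFRP1 and SFRP2 are not analysed here. A further 4 probes without a symbol are described in the files as frizzled-related protein, the product of FRZB (also called SFRP3), and they are given as FRZB outside that choice. DKK3 was chosen by its line difference in these same pigs, so its line values are a description with no test.

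The samples were subcutaneous adipose tissue of 8 pigs of a line with low residual feed intake (low-RFI) and 8 pigs of a line with high residual feed intake (high-RFI), all at 20 kg body weight and all fed freely. Residual feed intake is the feed eaten beyond what growth and maintenance account for, so low-RFI pigs are the feed-efficient ones. The labels name no allele, drug or age, and each pig was read on 1 array. Every pig carries a replicate number within its line. Replicates 1 to 4 and replicates 5 to 8 of both lines were compared as 2 sets, and the labels do not say whether the sets differ in any way. The arrays came on 4 slides, each with 1 pig of every line and set, so slide was balanced over both. The lines were compared to ask how transcripts of fat differ between pigs selected for feed efficiency in opposite directions.

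Wnt ligands are secreted proteins that bind frizzled receptors and the co-receptors LRP5 and LRP6, which stabilises beta-catenin and turns on target genes. Secreted antagonists act outside the cell. Frizzled-related proteins carry a cysteine-rich domain like that of the receptors and can bind Wnt ligands, whereas dickkopf proteins such as DKK1 and DKK2 bind the co-receptors. DKK3 is the divergent member of the dickkopf family, and its action on Wnt signalling varies with the cell type. In fat, canonical Wnt signalling keeps precursor cells from becoming adipocytes, and in humans SFRP4 is known as a protein that adipose tissue releases.

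The probes are 60 bases long, and their start positions are those the files give along each probe's target sequence. The DKK3 sequences are shown because the gene was read at 2 separate places, by 1 probe at the start of the target and by a pair near its end. That pair starts at 2274 and 2316 and shares 18 bases, marked in capitals, so the 2 probes are partly the same measurement and not replicates of each other. The first sequence is the whole probe, the second the last 30 bases and the third the first 30 bases of their probes.
DKK3, start 376: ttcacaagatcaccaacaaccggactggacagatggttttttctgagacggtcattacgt
DKK3, start 2274: ataaatgatattTTCAGGTGTCATGGACTG
DKK3, start 2316: TTCAGGTGTCATGGACTGtttccatcatgt

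SFRP4 rests on 1 probe, and the FRZB probes start at 685, 1199, 1237 and 1393. The middle pair of FRZB probes would share 22 positions by their starts, with 2 mismatches between their sequences. The first 30 bases are shown for the SFRP4 probe and for the outermost FRZB probes.
SFRP4, start 1637: tccacgtggggaaatacgcttttgttctta
FRZB, start 685: tcactgccgatggagcagattttcctatgg
FRZB, start 1393: gtggtctgggtgcagatccttaaatatagt

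Signals are the log2 of the deposited processed intensity minus the 75th percentile of the array, so 0 is that percentile, and the level of 1 probe is not set against that of another. The share of spots well above background ranged between 67.3% and 78.5% over the arrays, no spot was saturated, and pairs of arrays correlated at 0.944 to 0.989. All 8 probes of DKK3, SFRP4 and FRZB were well above background on 16 of 16 arrays. The tissue label was checked against markers of fat cells. ADIPOQ, the hormone adiponectin, had a signal of 8.32 ± 0.17 in low-RFI and 8.33 ± 0.23 in high-RFI pigs, and FABP4, a fatty acid carrier, had 8.52 ± 0.15 in low-RFI and 8.51 ± 0.10 in high-RFI pigs (SD, n = 8 each). All 12 adipocyte markers were measured.

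DKK3 signals were higher in low-RFI than in high-RFI pigs at all 3 probes, by 0.79 to 1.02 on the log2 scale. The probe at 2316 had a lowest signal of 0.61, a median of 1.95 and a highest of 2.99 in low-RFI pigs, against 0.10, 0.97 and 1.44 in high-RFI pigs. Of the 8 low-RFI pigs, 7 lay above every high-RFI pig, and the exception, replicate 2, lay inside the high-RFI range. The means were 1.89 ± 0.68 in low-RFI and 0.89 ± 0.42 in high-RFI pigs (SD, n = 8 each), which is a line difference of 1.01 (SE 0.27) or 2.01-fold. The gene was chosen by these values. Above the high-RFI mean, a looser mark, there were also 7 low-RFI pigs. Of the 32097 probes kept, 6.5% had at least 7 of 8 there, and nothing is read from that share. How many probes had 7 low-RFI pigs above every high-RFI pig was not counted.

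The overlapping DKK3 probe at 2274 gave nearly the same picture. Its signal was 0.59 at the lowest, 1.83 at the median and 3.03 at the highest in low-RFI pigs, against 0.07, 0.93 and 1.40 in high-RFI pigs. Here 6 low-RFI pigs lay above every high-RFI pig, a count whose share over all probes was not taken. The means were 1.80 ± 0.70 in low-RFI and 0.78 ± 0.42 in high-RFI pigs (SD, n = 8 each), which is a line difference of 1.02 (SE 0.27).

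The DKK3 probe at 376, at the other end of the target, showed more overlap between the lines. Its signal was -2.73 at the lowest, -2.07 at the median and -0.91 at the highest in low-RFI pigs, against -3.56, -2.70 and -1.98 in high-RFI pigs. Only 4 low-RFI pigs lay above the highest high-RFI pig, and 4 high-RFI pigs lay below the lowest low-RFI pig. Shares of all probes with these counts were not taken either. The means were -1.97 ± 0.55 in low-RFI and -2.77 ± 0.62 in high-RFI pigs (SD, n = 8 each), which is a line difference of 0.79 (SE 0.27). The size of this difference depended on the background correction. It was 0.36 under normexp correction, which moved the median line difference of all probes to -0.12, while the probes at 2316 and 2274 gave 1.03 and 0.986 under that correction. At all 3 probes low-RFI replicate 3 was the highest pig and high-RFI replicate 4 the lowest. In bulk tissue, more cells of a type that makes DKK3 and more DKK3 RNA per cell cannot be told apart.

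**Figure D1:**
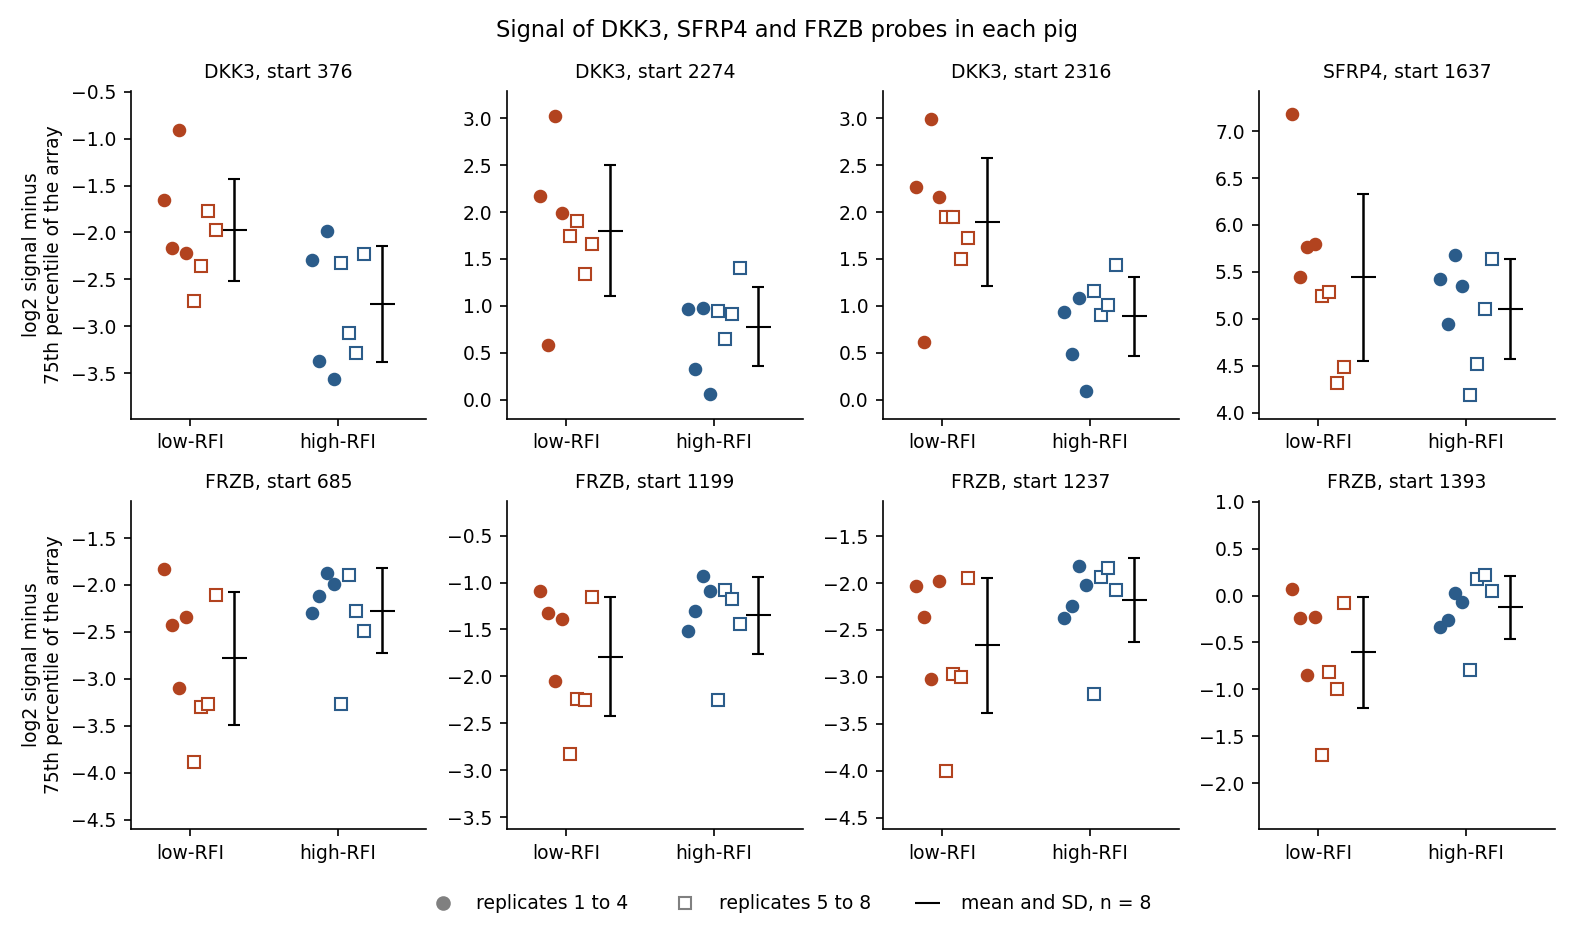
Signal of each probe in each pig (log2 processed signal minus the 75th percentile of the array), low-RFI pigs left in red and high-RFI pigs right in blue, with filled circles for replicates 1 to 4, open squares for replicates 5 to 8, and bars for the mean and SD of 8 pigs. Each panel spans the same 3.5 log2 units. For the DKK3 probe at 2316, 7 of 8 low-RFI pigs lie above all high-RFI pigs, a count whose share over all probes was not taken. The lines overlap for SFRP4, and the lowest FRZB signals are those of low-RFI replicate 5.

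Within replicates 5 to 8 the DKK3 difference between low-RFI and high-RFI pigs was 0.65 (SE 0.16) at 2316, 0.69 (SE 0.19) at 2274 and 0.52 (SE 0.30) at 376. Within replicates 1 to 4 it was 1.36 (SE 0.47), 1.36 (SE 0.47) and 1.07 (SE 0.42) at the same probes. The difference was positive in both sets at all 3 probes, and at least 0.5 in each. At 376 the difference within replicates 5 to 8 fell below that, to 0.16 under normexp correction, 0.34 without high-RFI replicate 7 and 0.37 without low-RFI replicate 7, and within replicates 1 to 4 it was 0.57 under normexp correction. Over all probes kept, 0.527% reached 0.5 in both sets, and nothing is read from this share because the gene was chosen by that contrast. The spread differed too. At 2316 the low-RFI pigs had 1.78 ± 0.22 in replicates 5 to 8 and 2.01 ± 1.001 in replicates 1 to 4, while high-RFI pigs had 1.13 ± 0.23 in replicates 5 to 8 and 0.65 ± 0.45 in replicates 1 to 4 (SD, n = 4 each). In replicates 5 to 8 the 4 low-RFI pigs, at 1.497 to 1.95, lay above the 4 high-RFI pigs, at 0.90 to 1.44. Of all probes 1.33% showed this separation, and nothing is read from that share either. In replicates 1 to 4 the lines overlapped because low-RFI replicate 2, at 0.61, lay below 2 of the high-RFI pigs.

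Whether the line difference itself differed between the sets was tested with the interaction of line and set. In limma it was -0.71 (SE 0.53, adjusted p = 0.806) at the DKK3 probe at 2316, -0.67 (SE 0.55, adjusted p = 0.818) at 2274 and -0.54 (SE 0.56, adjusted p = 0.847) at 376. None of the 8 probes passed (0% of the 32097 probes did), and 0 of 8 had an unadjusted p under 0.05, against 6.81% of all probes. The 95% interval at 2316 ran between -1.84 and 0.42. Single pigs moved this value, to -1.17 without low-RFI replicate 2 (limma unadjusted p = 0.0044, adjusted p = 0.549) and to -0.38 without low-RFI replicate 3, and it was -0.19 with array weights. Between the sets themselves DKK3 differed by 0.12 (SE 0.26, limma adjusted p = 0.816) at 2316, replicates 5 to 8 minus replicates 1 to 4. The corresponding limma values were 0.06 (adjusted p = 0.926) at 2274 and -0.20 (adjusted p = 0.701) at 376.

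Slides gave the same sign with unequal sizes. With 2 pigs of each line on a slide, the DKK3 difference between low-RFI and high-RFI pigs at 2316 was 0.14, 1.29, 1.92 and 0.68 on slides 1 to 4. At 2274 it was 0.16, 1.32, 1.97 and 0.64, and at 376 it was 0.72, 0.66, 1.79 and 0.01. Slide 3, which holds the highest low-RFI pig and the lowest high-RFI pig, gave the largest difference at all 3 probes. Of all probes, 6.2% were positive on all 4 slides, and nothing is read from this share because DKK3 was chosen by its line difference.

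**Figure D2:**
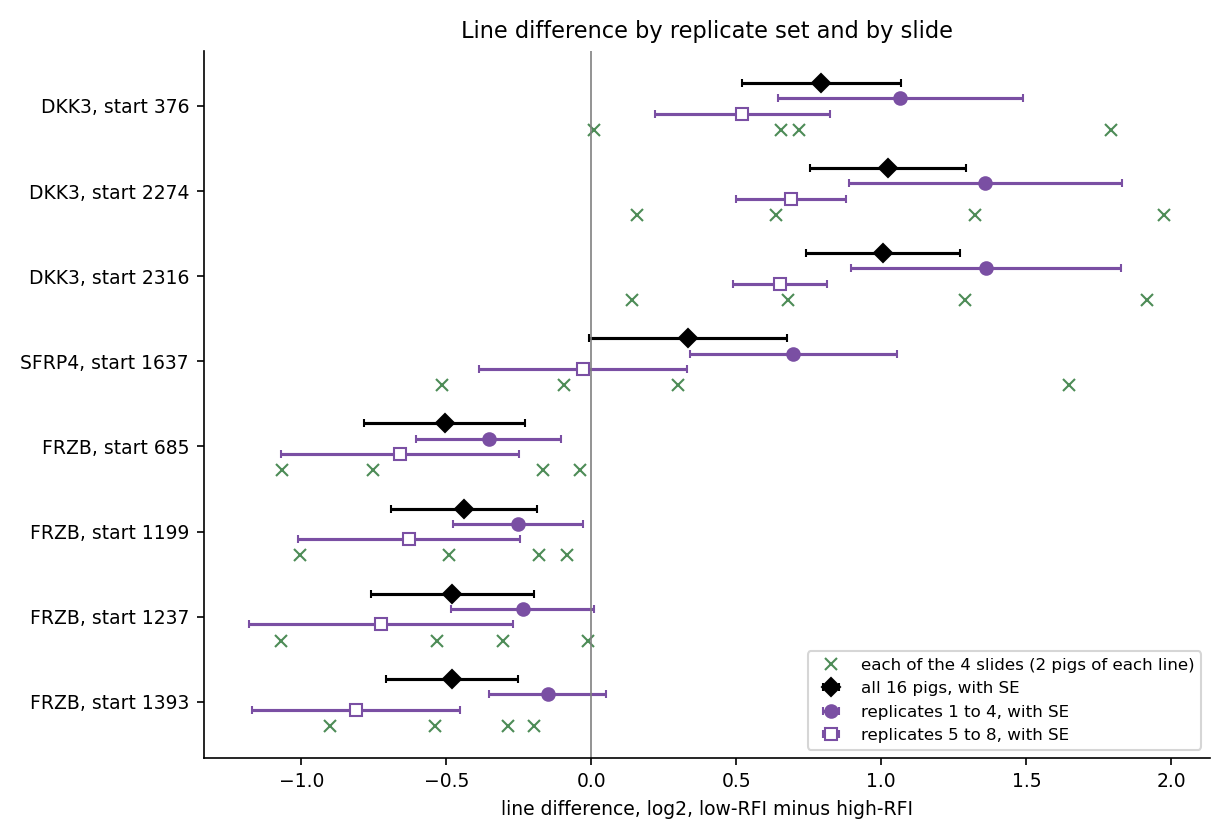
Line difference of each probe in log2 units, low-RFI minus high-RFI, for all 16 pigs (black diamonds), replicates 1 to 4 (filled circles) and replicates 5 to 8 (open squares), each with its standard error, and for each of the 4 slides (crosses). The DKK3 values all lie right of 0, between 0.01 and 1.97, the SFRP4 values lie on both sides of 0, and the FRZB values all lie left of it.

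SFRP4 was not shown to differ between the lines, although its signal in single pigs ranged over 2.99 log2 units. It was 4.31 at the lowest, 5.37 at the median and 7.18 at the highest in low-RFI pigs, against 4.19, 5.23 and 5.68 in high-RFI pigs. The lines overlapped, with 3 low-RFI pigs above every high-RFI pig, and the share of all probes with that count was not taken. The means were 5.44 ± 0.89 in low-RFI and 5.11 ± 0.53 in high-RFI pigs (SD, n = 8 each), which is a line difference of 0.33 (SE 0.34, limma adjusted p = 0.9999) with a 95% interval of -0.39 to 1.06. Low-RFI replicate 1, at 7.18, decided much of it, and without that pig the difference was 0.09. It was 0.20 without high-RFI replicate 5 and 0.08 with array weights. In limma 0% of all probes passed for the lines, and 3.68% had an unadjusted p under 0.05.

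By set, the SFRP4 line difference was -0.03 (SE 0.36, limma adjusted p = 0.992) within replicates 5 to 8 and 0.70 (SE 0.36, adjusted p = 0.898) within replicates 1 to 4. Of all probes 0% passed within replicates 5 to 8 and 0.0156% within replicates 1 to 4, and none of the SFRP4 and FRZB probes did. The limma interaction was -0.73 (SE 0.54, adjusted p = 0.805), so a difference between the sets was not shown. Without low-RFI replicate 1 the difference within replicates 1 to 4 was 0.32 and the interaction -0.35, and without high-RFI replicate 8 the interaction was -0.47. On slides 1 to 4 the SFRP4 line difference was -0.10, 1.65, 0.30 and -0.51, with slide 2 holding the pig at 7.18.

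SFRP4 had the largest set difference of the 3 genes. Replicates 5 to 8 had 4.85 ± 0.53 and replicates 1 to 4 had 5.70 ± 0.66 (SD, n = 8 each), a difference of -0.85 (SE 0.27, limma adjusted p = 0.0765, unadjusted p = 0.0068), or 1.80-fold lower in replicates 5 to 8. It did not pass the threshold, nor did any other probe of the 3 genes, while 5.19% of all probes passed and 23.7% had an unadjusted p under 0.05. The low-RFI pigs had 4.83 ± 0.51 in replicates 5 to 8 and 6.05 ± 0.77 in replicates 1 to 4, and high-RFI pigs had 4.86 ± 0.64 in replicates 5 to 8 and 5.35 ± 0.31 in replicates 1 to 4 (SD, n = 4 each).

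FRZB signals were lower on average in low-RFI than in high-RFI pigs at all 4 probes, but none passed the test. The probe at 1393 had -1.70 at the lowest, -0.53 at the median and 0.07 at the highest in low-RFI pigs, against -0.80, -0.02 and 0.22 in high-RFI pigs. Of the low-RFI pigs, 4 lay below every high-RFI pig at 1393, but only 3 at 685, 1 at 1199 and 1 at 1237. The share of all probes with such counts was not taken. At 1393 the means were -0.60 ± 0.59 in low-RFI and -0.12 ± 0.34 in high-RFI pigs (SD, n = 8 each). That is a line difference of -0.48 (SE 0.23, limma adjusted p = 0.9999, unadjusted p = 0.0503) with a 95% interval that ended at 0.0006. The other FRZB probes differed by -0.51 (SE 0.28) at 685, -0.44 (SE 0.25) at 1199 and -0.48 (SE 0.28) at 1237, each with a limma adjusted p of 0.9999. Low-RFI replicate 5 was the lowest pig at every FRZB probe, and without it the difference at 1393 was -0.32.

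The FRZB line difference at 1393 was -0.81 (SE 0.36, limma adjusted p = 0.845) within replicates 5 to 8 and -0.15 (SE 0.20, adjusted p = 0.961) within replicates 1 to 4. At the other 3 probes it lay between -0.63 and -0.72 within replicates 5 to 8 and between -0.24 and -0.35 within replicates 1 to 4. The interaction had adjusted p-values of 0.785 to 0.910 over the 4 probes, so a difference between the sets was not shown. At 1393 it was -0.66, and -0.39 without low-RFI replicate 5. The difference was negative on all 4 slides at each probe, between -0.01 and -1.07, as it was for 8.26% of all probes. The set difference was -0.26 (SE 0.22, limma adjusted p = 0.497) at 1393 and -0.56 (SE 0.25, adjusted p = 0.195) at 685, replicates 5 to 8 minus replicates 1 to 4. Since the 4 FRZB probes read 1 gene, their shared sign is 1 observation and not 4.

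Pooled over the groups of line and set, all 3 genes varied more between pigs of the same group than most probes did. The standard deviation within line and set was 0.57 to 0.60 for the DKK3 probes, 0.58 for SFRP4 and 0.46 to 0.59 for the FRZB probes, against a median of 0.28 over all probes. The FRZB probe at 1393 exceeded 78.3% of probes in this spread and the DKK3 probe at 376 exceeded 87.8%, with the others between them. The groups were unequal. At the DKK3 probe at 2316 the SD was 1.001 in low-RFI replicates 1 to 4. In replicates 5 to 8 it was 0.22 in low-RFI and 0.23 in high-RFI pigs, below the median of all probes. At the FRZB probe at 1393 it ran between 0.17 in high-RFI replicates 1 to 4 and 0.66 in low-RFI replicates 5 to 8.

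Probes of 1 gene varied together over the pigs, and the 3 genes did so less. With values centred within line and set, which takes out the line and set means, the DKK3 probes at 2274 and 2316 correlated at r = 0.99, and the probe at 376 correlated with them at 0.63 and 0.59 (Pearson r, 16 arrays). The FRZB probes correlated with each other at 0.94 to 0.98. DKK3 at 2316 correlated with SFRP4 at 0.41 and with the FRZB probes at -0.20 to -0.28, and SFRP4 correlated with FRZB at 0.13 to 0.20. The probe at 376 correlated with SFRP4 at 0.07 only. The 16 values of each probe come from the same arrays and share their scaling.

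**Figure D3:**
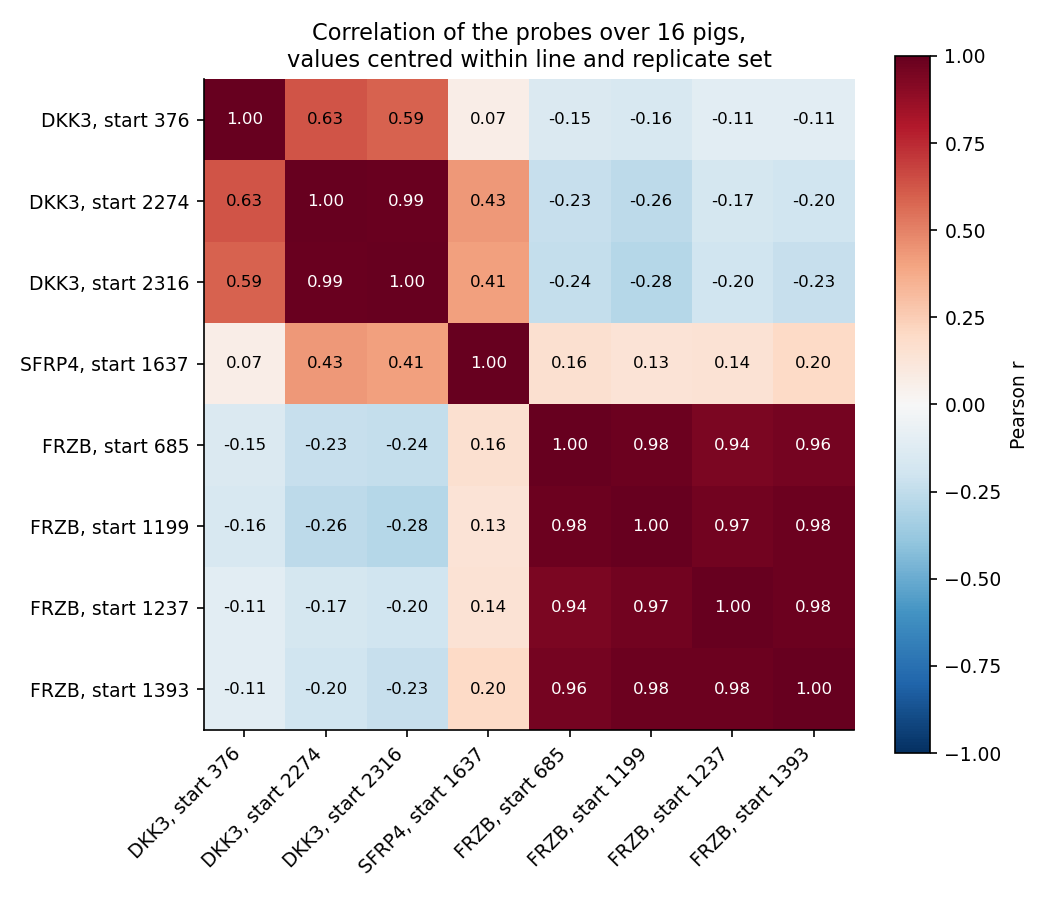
Pearson correlation between the 8 probes over 16 pigs after centring the values within line and replicate set, in rows and columns ordered by gene and start position (red positive, blue negative). The FRZB probes form a block at 0.94 or more, the DKK3 pair near the end of the target stands at 0.99, and the correlations between genes lie between -0.28 and 0.43.

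The genes whose signal followed DKK3 most closely, by the same centred correlation with the probe at 2316 among 4528 other named genes, were MGP at 0.84, PXDC1 at 0.81, MUS81 at 0.81 and DKK2 at 0.81. MGP encodes matrix Gla protein, an inhibitor of calcification in soft tissue, MUS81 a DNA endonuclease, and DKK2 another dickkopf protein. The lowest were LRFN2, which encodes a synaptic adhesion protein, at -0.80 and MMP9, a gelatin-degrading matrix protease, at -0.89. Over all 4528 genes the 5th and 95th percentiles of this correlation were -0.51 and 0.49. At 2316 the low-RFI pigs of replicates 1 to 4 had an SD of 1.001, against 0.22 to 0.45 in the other groups of line and set. Those pigs therefore weighed most in every centred correlation with this probe. MMP9 had 2.51 in low-RFI replicate 2, the low-RFI pig with the lowest DKK3, and 0.21 in low-RFI replicate 3, the pig with the highest.

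DKK2 followed DKK3 in both lines, at r = 0.86 among low-RFI pigs and 0.86 among high-RFI pigs (8 arrays each), and at 0.89 over all 16. Its probe is named through a transcript accession. DKK2 signals were 0.98 ± 0.45 in low-RFI and 0.30 ± 0.51 in high-RFI pigs (SD, n = 8 each), which is a line difference of 0.68 (SE 0.23, limma adjusted p = 0.9999, unadjusted p = 0.0085). The line difference was 0.27 within replicates 5 to 8 and 1.09 within replicates 1 to 4. Low-RFI replicate 3 had the highest signal of both genes and high-RFI replicate 4 the lowest, as the plot of members against like genes shows.

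SFRP4 was followed most closely by TMEFF2 at 0.85, THY1 at 0.83, IGFBP6 at 0.77 and S100A6 at 0.76. TMEFF2 encodes a transmembrane protein with follistatin-like domains, THY1 a surface glycoprotein of fibroblasts and other cells, IGFBP6 a binding protein for insulin-like growth factors and S100A6 a calcium-binding protein. The lowest were ASTN2 at -0.90 and ITPRIP at -0.90, which encode astrotactin 2 and a protein that interacts with the inositol trisphosphate receptor. The 5th and 95th percentiles over all genes were -0.47 and 0.46. Within the lines and without centring, THY1 correlated with SFRP4 at 0.90 among low-RFI and 0.85 among high-RFI pigs, and ASTN2 at -0.63 among low-RFI and -0.11 among high-RFI pigs (8 arrays each).

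FRZB at 1393 was followed most closely by P2RY1 at 0.88, CCN2 at 0.82, CACNA2D1 at 0.82 and IGSF1 at 0.81. P2RY1 encodes a purinergic receptor, CCN2 a matricellular protein, CACNA2D1 a calcium channel subunit and IGSF1 a membrane protein of the immunoglobulin superfamily. The lowest were MGAT1, an enzyme of N-glycan synthesis, at -0.82 and USP7, a deubiquitinase, at -0.83. The 5th and 95th percentiles over all genes were -0.58 and 0.53. Within the lines and without centring, P2RY1 correlated with FRZB at 0.79 among low-RFI and 0.41 among high-RFI pigs (8 arrays each). CCN2 did so at 0.90 among low-RFI and 0.77 among high-RFI pigs, and CACNA2D1 at 0.70 and 0.39. IGSF1 stood at 0.09 among low-RFI and 0.72 among high-RFI pigs, so it did not follow FRZB in the low-RFI line.

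**Figure D4:**
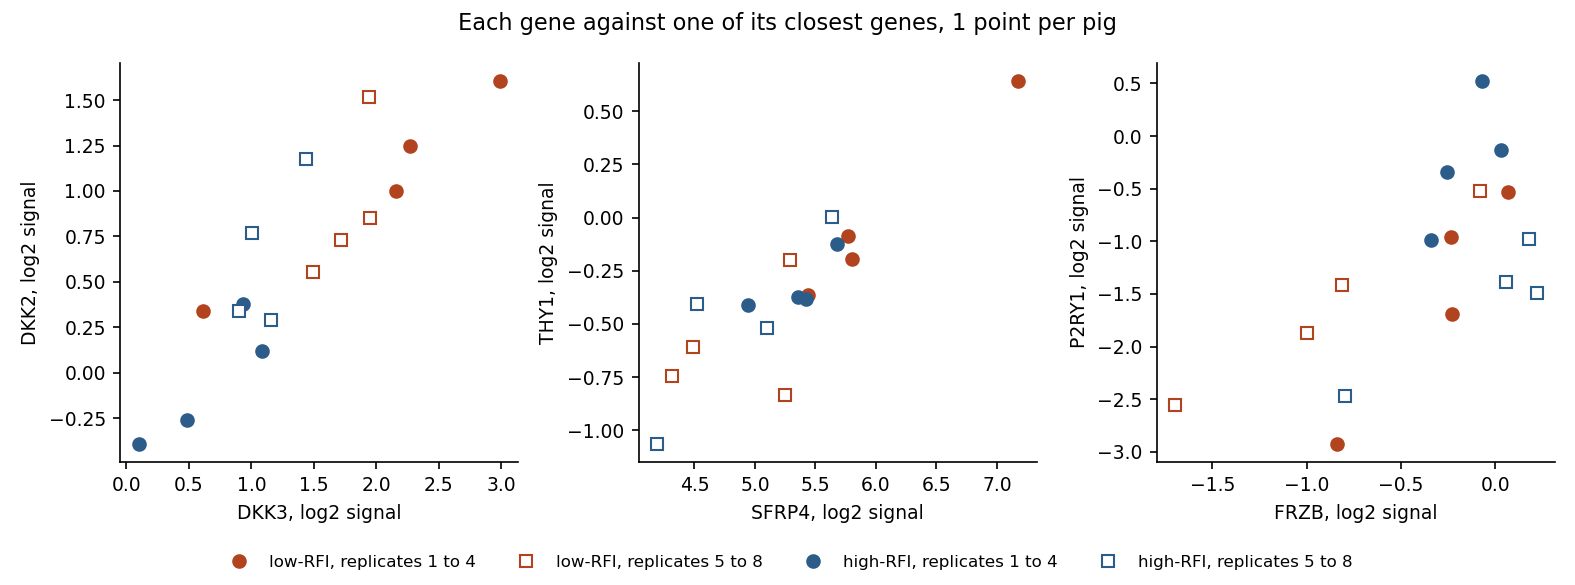
Log2 signal of DKK3 against DKK2, SFRP4 against THY1 and FRZB against P2RY1, each gene by its brightest probe, with 1 point per pig, low-RFI in red and high-RFI in blue, filled circles for replicates 1 to 4 and open squares for replicates 5 to 8. The uncentred correlations over the 16 pigs are 0.89, 0.89 and 0.68; a single pig, low-RFI replicate 1, stands at the upper right of the SFRP4 panel at 7.18.

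Markers of other cell types were set beside these values. The fibroblast and preadipocyte list, with 15 of 19 genes measured and DLK1 well above background on 10 of 16 arrays, had a mean level (each gene centred on its own mean) of -0.25 to 0.51 in low-RFI and -0.30 to 0.26 in high-RFI pigs. Its centred correlation was 0.55 with DKK3 and 0.58 with SFRP4, and its part in their values was not tested. Its genes did not move as 1. Singly they correlated with DKK3 between -0.41 (DLK1) and 0.73 (FBN1). With SFRP4 they did so between -0.34 (DPP4) and 0.83 (THY1, also named above as 1 of its closest genes). DKK3 correlated at -0.45 with the adipocyte list and at -0.41 with the endothelial list (8 of 9 genes measured). With the nerve list (4 of 5) it correlated at -0.26. The endothelial level was -0.38 to 0.18 in low-RFI and -0.27 to 0.25 in high-RFI pigs. The part of these lists in the DKK3 values was not tested. FRZB correlated at 0.78 with the smooth muscle and pericyte list (6 of 9 genes measured), whose level was -0.83 to 1.07 in low-RFI and -0.66 to 0.67 in high-RFI pigs. The 1.07 was that of low-RFI replicate 8, also the pig with the highest skeletal muscle level, and the correlation without it was not computed. FRZB correlated at -0.68 with the macrophage list (4 of 7 genes), whose level was -0.67 to 0.31 in low-RFI and -0.63 to 1.55 in high-RFI pigs. Their part in the FRZB values was not tested. Skeletal muscle genes (9 of 11 measured) stood at 7.46 in low-RFI replicate 8, against -0.93 to 1.18 in the other low-RFI pigs and -0.85 to 0.47 in high-RFI pigs. The list correlated with FRZB at 0.65 and with DKK3 at 0.00, and the FRZB difference at 1393 was -0.56 without that pig. Of a list of 7 epithelial genes drawn up for skin, 4 were measured (EPCAM, CDH1, DSG1 and KRT8), without the keratins KRT5 and KRT14. Whether their signal came from skin or another epithelium was not tested. The list stood at -1.20 to 0.08 in low-RFI and -1.07 to 3.52 in high-RFI pigs, with high-RFI replicates 6 and 2 highest at 3.52 and 2.20. All 4 genes were lower on average in low-RFI pigs, with a median line difference of -1.54, and none passed the test. KRT8, an epithelial keratin that was named after its values were seen, differed by -1.53 (SE 0.58, limma unadjusted p = 0.018, adjusted p = 0.9999). The list correlated with FRZB at 0.32 and with DKK3 at -0.16, and the FRZB difference at 1393 was -0.44 without high-RFI replicate 6. The part of the skeletal muscle and epithelial lists in the FRZB values was likewise not tested beyond these differences.

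Of the other Wnt pathway genes none passed for the lines, as none of the 4529 named genes with a value on every array did in limma, with 3.82% at an unadjusted p under 0.05 and a median difference of -0.02. The 4 measured Wnt ligands of 19 listed all had positive differences over all pigs, with a median of 0.21. WNT11 turned to -0.13 under normexp correction. The sign held in both replicate sets for WNT5B only. In the set of lower replicate numbers the differences were 1.05 for WNT2B, 1.18 for WNT10B, 0.67 for WNT11 and 0.08 for WNT5B. In the set of higher replicate numbers they were -0.73, -0.09, -0.32 and 0.39 in that order. The interaction of line and set passed for none of them. WNT10B, a ligand that restrains adipocyte formation, had -0.94 ± 0.80 in low-RFI and -1.48 ± 1.09 in high-RFI pigs, which is a line difference of 0.55 (SE 0.45). WNT5B, a ligand of the non-canonical branch, had 2.78 ± 0.50 in low-RFI and 2.54 ± 0.30 in high-RFI pigs, which is a line difference of 0.24 (SE 0.20). Of 4529 genes 45.5% were positive.

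The 10 measured receptors and co-receptors of 23 listed had a median line difference of 0.05, with 7 positive and 3 negative, and of -0.26 with 2 positive under normexp correction. That correction moved the median line difference of all probes to -0.12. Lower positive counts under it are therefore not read as a change in any of the Wnt lists. KREMEN1, a receptor for dickkopf proteins, was the only gene of the receptor list that passed for the sets, with -5.35 in replicates 5 to 8 and -5.02 in replicates 1 to 4, a difference of -0.33 (SE 0.08, limma adjusted p = 0.040). The call was lost under quantile scaling, with no filter and under normexp correction, where the difference was 0.08, and without each of 14 single arrays. For the sets 5.90% of named genes passed. The 6 measured secreted modulators of 16 listed had a median line difference of 0.08, with 5 positive, and of -0.01 with 3 positive under normexp correction, where DKK2 stood at 0.61. Besides DKK2, the smallest unadjusted p among them was that of TPBG, a membrane glycoprotein that inhibits canonical Wnt signalling, with a difference of -0.11 (SE 0.15).

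The 14 measured intracellular genes of 29 listed had a median line difference of -0.03, with 5 positive and 9 negative, against 2 positive under normexp correction and 7 with array weights. PYGO2, a nuclear co-activator of beta-catenin, had 3.11 ± 0.33 in low-RFI and 3.46 ± 0.18 in high-RFI pigs (SD, n = 8 each), which is a line difference of -0.36 (SE 0.13, unadjusted p = 0.018, limma adjusted p = 0.9999). DVL3, a dishevelled protein that carries the signal from frizzled receptors, differed by -0.18 (SE 0.10). CTNNB1, which encodes beta-catenin and was named after its values were seen, had 4.70 ± 0.13 in low-RFI and 4.73 ± 0.08 in high-RFI pigs.

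The 9 measured Wnt target genes of 23 listed had a median line difference of -0.05, with 4 positive and 5 negative, against 2 positive and a median of -0.18 under normexp correction and 5 positive and a median of 0.10 with array weights. Between the sets MYC, a growth-promoting transcription factor, was higher by 0.72 (SE 0.17, limma adjusted p = 0.031), with 0.70 in replicates 5 to 8 and -0.02 in replicates 1 to 4. BMP4, a growth factor that commits precursors to the fat lineage, was lower, with -3.05 in replicates 5 to 8 and -2.38 in replicates 1 to 4, a difference of -0.67 (SE 0.17, limma adjusted p = 0.038). AXIN2, a common readout of canonical Wnt signalling that was named after its values were seen, had -0.05 ± 0.64 in low-RFI and 0.01 ± 0.55 in high-RFI pigs, which is a line difference of -0.06 (SE 0.28) that turned to 0.10 with array weights. Its line difference was 0.53 within replicates 5 to 8 and -0.65 within replicates 1 to 4 (limma adjusted p of the interaction 0.722). The MYC and BMP4 calls were lost under normexp correction and with no filter, that of BMP4 also with slide as a block, and without 9 and 12 of the 16 single arrays. No interaction passed in any of the 5 lists.

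**Figure D5:**
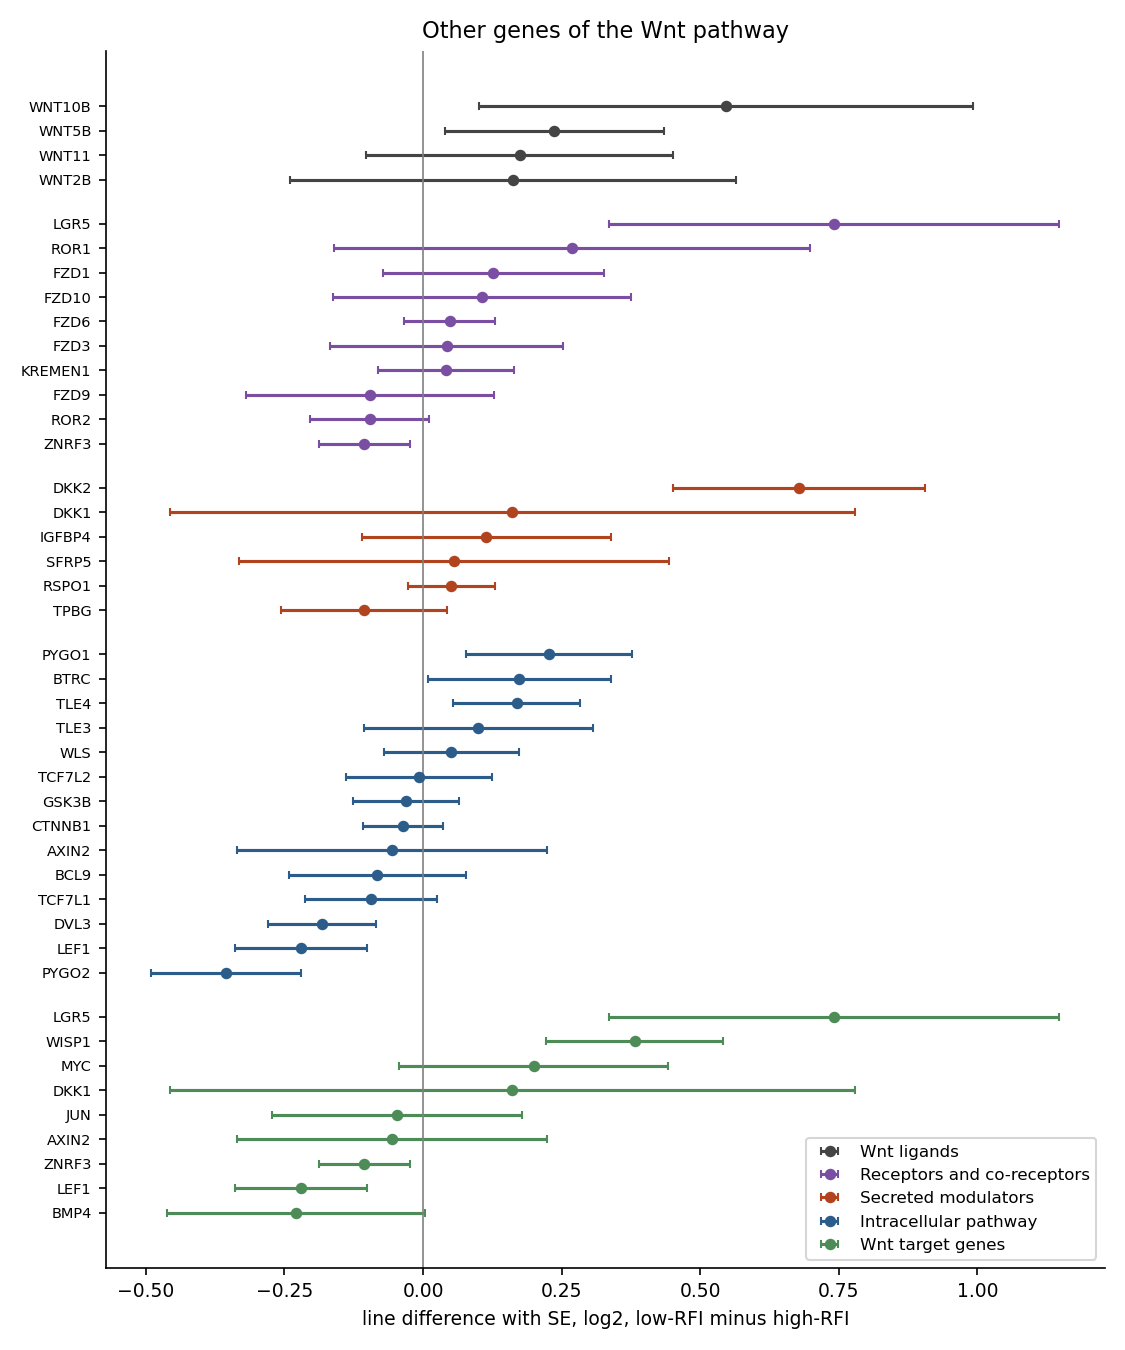
Line difference with standard error in log2 units, low-RFI minus high-RFI, of the measured genes of 5 Wnt lists, coloured by list and ordered within each, with genes of 2 lists drawn in both. DKK2 at 0.68 and LGR5 at 0.74 have the largest positive differences and PYGO2 at -0.36 the largest negative one, LGR5 turned to -0.06 under normexp correction, and none passed the test.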

How the data were processed

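Total RNA from the fat of 16 pigs was amplified, labelled with Cy3 and read on 1-colour Agilent arrays, 1 per pig, per the labels' protocols. Per the file headers, the deposited processed intensity of each spot came from Agilent Feature Extraction 10.7.3.1, with background subtraction and detrending within the array and no scaling between arrays. The authors also deposited a table of log2 values for 28963 spots, checked to be the log2 of the processed signal centred on the array's median over these spots. The submitters' processing notes name R 2.10.0.

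Here the log2 processed signal minus the 75th percentile of the array was used. Outlier spots were left out, spots of a probe were averaged, and probes were kept if well above background on at least 8 arrays with at least 6 values per line (32097 probes, 610 values missing). limma 3.58.1 in R 4.3.3 compared the lines over all arrays and within replicates 1 to 4 and 5 to 8, and fitted set and the interaction of line and set, two-sided, with Benjamini-Hochberg adjustment over all probes and a threshold of 0.05. The fit was tested on simulated data. A gene stands by its brightest kept probe, named from the file's gene name, gene ID, accession or description. Coordinates on the genome were not used. The text names every probe of the 5 genes, the 4 most and 2 least correlated genes per gene, and per Wnt list up to 3 passing genes per direction or the 2 smallest line p-values, with exceptions marked. The genes and lists were chosen with earlier results of these data known. The alternatives were quantile and median scaling, normexp background correction, stricter and no filters, kept outlier spots, blocks for slide and replicate number, array weights, the deposited table and each array left out. The number of arrays limits the precision.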

Additional observations from a re-analysis of the deposited data

Results flagged for a closer look

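High-RFI replicate 5 stood far below the other high-RFI pigs at 3 of the 4 FRZB probes. Its signal was -3.26 at the probe at 685, -2.25 at 1199 and -3.19 at 1237, and the gap to the nearest other high-RFI pig was 0.56 to 0.60 of the whole range, above the Dixon critical value of 0.526 for 8 samples. The 3 probes read the same gene, so this is 1 observation. Among 16 groups of 8 values examined 3 were marked, and chance marks about 1 in 20. That pig also had the highest macrophage marker level, 1.55, and the lowest SFRP4 signal of all pigs, 4.19. Its array had the lowest share of spots well above background, 67.3%. Whether these go together was not tested. Without that pig, the FRZB line difference at 1393 was -0.58.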

How the results depend on the processing

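The DKK3 line difference kept its positive sign at all 3 probes under every alternative run and without each array in turn, between 0.85 and 1.19 at the probe at 2316 and between 0.36 and 0.91 at 376. No probe passed for the lines, except 1 without low-RFI replicate 4, so 0 to 1 probes passed without single arrays. The number of probes that passed between the sets was 1665, but 5 under normexp correction, 848 with no filter, 5539 with array weights, and 573 (without low-RFI replicate 2) to 4719 (without low-RFI replicate 3) without single arrays. Within replicates 1 to 4 the 5 probes became 0 under normexp, 3 with the filter on all 16 arrays, 2 with the replicate block, and 3 to 5 without single arrays. SFRP4 never passed for the sets, with limma adjusted p-values of 0.052 to 0.20 over all alternatives. Values near 0 changed sign. The DKK3 set difference without single arrays was -0.11 to 0.29 at 2316 and -0.17 to 0.24 at 2274. The SFRP4 line difference within replicates 5 to 8 was 0.10 under normexp and -0.25 to 0.23 without single arrays, and that of FRZB at 1393 within replicates 1 to 4 was -0.28 to 0.027. The causes were not tested. Without centring, 3 of the 12 closest genes stayed among the closest. Same-numbered pigs of the 2 lines correlated at -0.293 to 0.319 in their deviations from the line means, and 1 of 8 numbers had its best match in its own number. Whether the numbers pair the pigs by design cannot be told from these correlations. With the replicate block 1 probe passed for the interaction, 0 without it, and 0 passed for the line in either fit, with 1542 probes at an unadjusted p under 0.05. With 8 pigs per line, the 95% interval of the SFRP4 line difference reached 0.72 to either side.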

Other observations

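When values were not centred by line and set, 3 genes outside the 4 named above stood among the 4 closest to DKK3 over the 16 pigs. DKK2 came first at 0.89, then THBS3, a thrombospondin, at 0.84, COMP, cartilage oligomeric matrix protein, at 0.84 and EBF2, a transcription factor of fat cell precursors, at 0.81. COMP had 2.12 ± 1.03 in low-RFI and 1.14 ± 0.75 in high-RFI pigs, and THBS3 had 3.45 ± 0.90 in low-RFI and 2.51 ± 0.87 in high-RFI pigs (SD, n = 8 each). Since DKK3 was chosen by its line difference, an uncentred ranking favours genes that also differ between the lines. For SFRP4 the closest without centring were THY1 at 0.89 and IGFBP6 at 0.84, and for FRZB they were RTKN2 at 0.84 and MFGE8, which encodes a milk fat globule protein, at 0.81.

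Some genes of the lists were singled out after their values were seen. SFRP5, a secreted frizzled-related protein known from mouse fat as an inhibitor of WNT5A, had 1.27 ± 0.88 in low-RFI and 1.21 ± 0.78 in high-RFI pigs (SD, n = 8 each), and its centred correlation with DKK3 was -0.75. Its line difference was 0.60 within replicates 5 to 8 and -0.49 within replicates 1 to 4, while that of DKK3 was positive in both. LGR5, a receptor for R-spondins, had -3.62 ± 0.79 in low-RFI and -4.36 ± 0.95 in high-RFI pigs (SD, n = 8 each), and WISP1, a matricellular protein induced by Wnt signalling, differed by 0.38 (SE 0.16) without passing the test. Under normexp correction both turned negative, to -0.06 and -0.19. FZD9, a frizzled receptor, correlated with DKK3 at 0.78 and FZD10, another, at -0.68.

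A further 2 probes carry a gene ID that the gene table gives to FRZB, while the files describe them as a deafness gene. Their line differences were -0.17 and 0.07, and they were not counted as FRZB.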
